A study of Mus musculus with 6 samples.

Results

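The 33 genes described here are mouse imprinted genes, taken as a named list and matched by symbol to the rows of a gene expression table of Py2T cells. All 33 matched a row among the 24454 in the table. Py2T is a murine breast cancer cell line, derived from a tumour of the mammary gland. RNA was sequenced in 6 libraries: 2 of cells given PBS with 0 µM H2O2, 2 of C40 cells given 40 µM H2O2 and 2 of I60 cells given 60 µM H2O2, each treatment daily for 4 months. The treatment protocol also calls the PBS cells untreated, and all 3 groups are the same line grown in the same medium. The libraries of a group are described as biological duplicates, but whether they were treated apart for the whole period is not given, so the p-values measure the spread between these libraries. Changes that a line acquired in culture apart from H2O2 and changes due to H2O2 cannot be told apart. In bulk RNA, fewer cells expressing a gene and less RNA per cell cannot be told apart either.

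An imprinted gene is transcribed mainly from the copy inherited from 1 parent. The copies carry different DNA methylation, set in the germ line at imprinting control regions and kept in somatic cells by maintenance methylation and by zinc finger proteins such as ZFP57. Imprinted genes lie in clusters, often with a long non-coding RNA such as Airn or Kcnq1ot1 that silences neighbours on the same chromosome. Many control fetal and placental growth, and several are silent in adult epithelium. The reads here do not separate the parental copies, so every value is the sum of both.

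The 6 libraries held 48113692 to 60260520 reads, and 1 read is worth 0.0166 to 0.0208 CPM, the unit of the deposited table, which scales the reads of each gene to a fixed library size. A count of 0 in a library allows up to 3 reads, which is 0.0498 to 0.0624 CPM; these limits cover counting error only. Replicates of C40 differed more than the others: 1022 genes were over 2-fold apart between them, against 223 in PBS and 217 in I60. The summed level of 7 epithelial markers was 6874 to 7381 CPM in PBS, 3536 to 3786 in C40 and 3091 to 3154 in I60. Cdh1 (E-cadherin) was at 529 and 537, 59.7 and 87.8, and 0.187 and 0.129 CPM. At a limma adjusted p below 0.05, 5 of the 7 were lower in C40 and in I60 than in PBS, beside 9.02% and 13.1% of all tested genes. The other 2, Krt8 and Krt18, differed in no comparison. Their means were 1213.9 and 1539.6 CPM in PBS and 1640.5 and 1477.6 in I60, where they made up most of the sum. The sum of 4 mesenchymal markers was 1166 to 1746, 8045 to 13021 and 4795 to 6644 CPM. All 4 were called higher than PBS in C40, and 3 of them (Vim, Cdh2 and Zeb1) in I60. The exception, Fn1, made up most of the PBS sum. Its I60 libraries, at 957.6 and 2268.5 CPM, spanned those of PBS, at 1119.8 and 1725 (limma adjusted p = 0.919). Fn1 was also lower in I60 than in C40 (limma adjusted p = 0.0355). Vim made up most of the I60 sum, with group means of 29.6, 2641.8 and 4025.7 CPM. Of 10 fibroblast markers, Lum, Fap and Thy1 were at 0 in all 6 libraries, and the sum was 6.31 to 7.39, 188 to 731 and 433 to 467 CPM. Pdgfra made up most of it in PBS and Col3a1 in the treated lines. Col3a1 was at 574.5 and 121.5 CPM in C40 and 417.6 and 356.8 in I60. Of the 5 tested, 5 were called higher than PBS in C40 and 4 in I60, beside 11.2% and 13.9% of all tested genes. The 4 immune markers summed to 4.64 to 5.06, 3.61 to 4.30 and 16.3 to 28.0 CPM, nearly all of it Cd68, with Cd3e and Adgre1 at 0. Endothelial, adipocyte and muscle markers stayed at or below 0.645 CPM. These marker changes run beside the gene changes described here, and their part in them was not tested.

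Of the 33 genes, 12 reached at least 1 CPM in at least 2 libraries and were tested, 12 had reads but stayed below that level, and 9 had no read in any library. The tested share was 36.4%, against 47.1% of all rows, and the share at 0 was 27.3%, against 27.8%. Snrpn and Snurf, the downstream and upstream reading frames of the same transcript, had the same reads in every library and count as 1 measurement, which leaves 11 distinct measurements. By the copy each gene is known to be expressed from, 8 of 21 paternal genes (Snrpn and Snurf counted apart) and 3 of 10 maternal genes were tested. Ube3a is counted as maternal here, although outside neurons it is expressed from both copies.

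The tested genes that differed between groups were Mest, Snrpn with Snurf, Peg12, Phlda2 and Gnas. The 250 bases before the start of 4 of them are shown, because these are the genes whose level moved against PBS. They come from RefSeq on GRCm38.p6, with TGCCGC or its reverse complement GCGGCA in capitals, the core of the methylated site that ZFP57 binds. Mest and Snrpn have several listed starts (3 and 4). For Snrpn the start shared with Snurf is shown. Each sequence is on its gene's own strand.
Mest: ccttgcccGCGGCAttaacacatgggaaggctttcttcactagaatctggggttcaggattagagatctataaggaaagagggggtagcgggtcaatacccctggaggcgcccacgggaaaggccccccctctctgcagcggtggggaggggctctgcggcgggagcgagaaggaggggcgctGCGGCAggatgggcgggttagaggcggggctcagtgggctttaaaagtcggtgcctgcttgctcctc
Snrpn: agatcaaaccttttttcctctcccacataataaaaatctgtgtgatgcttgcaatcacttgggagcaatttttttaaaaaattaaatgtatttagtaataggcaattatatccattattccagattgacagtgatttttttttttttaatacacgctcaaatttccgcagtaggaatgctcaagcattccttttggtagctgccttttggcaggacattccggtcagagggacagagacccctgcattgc
Peg12: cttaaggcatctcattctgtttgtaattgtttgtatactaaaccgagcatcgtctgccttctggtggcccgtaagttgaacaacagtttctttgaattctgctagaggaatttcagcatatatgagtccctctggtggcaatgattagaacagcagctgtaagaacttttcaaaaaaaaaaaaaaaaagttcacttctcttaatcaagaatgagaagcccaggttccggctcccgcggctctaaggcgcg
Phlda2: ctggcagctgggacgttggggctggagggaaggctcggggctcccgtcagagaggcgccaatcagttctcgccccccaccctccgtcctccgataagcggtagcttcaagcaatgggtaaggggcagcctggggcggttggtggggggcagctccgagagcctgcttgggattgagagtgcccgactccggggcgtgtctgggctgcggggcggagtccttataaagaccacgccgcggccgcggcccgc
Mest, at chr6:30737800-30738049 (plus strand), held 2 matches and 14 CpG dinucleotides. The window of another listed Mest start, not shown, held 7 CpG and no match. Phlda2, at chr7:143502525-143502774 (minus strand), held 21 CpG and no match. Peg12, at chr7:62464511-62464760 (minus strand), held 8 CpG, and Snrpn, at chr7:60005200-60005449 (minus strand), held 3, both without a match in this window. Among the 28 listed genes with a promoter sequence of this length, 4 held a match on either strand (14.3%; Meg3, Mest, Plagl1 and Zim1), against 9.84% of 27025 genes. Their median CpG count was 10, against 6 over all genes. A match describes these letters only.

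The first comparison set C40, the line on less H2O2, against PBS. In C40 Mest and Phlda2 fell, Peg12 rose from no reads, and the other 8 distinct measurements did not pass the test. Thus 1 of 12 tested rows was called higher and 2 lower (limma, adjusted p below 0.05 over all genes tested), where 11.2% of all 11524 tested genes were called higher and 9.02% lower (20.2% in either direction). The median log2 fold change of the tested rows was -0.17, against -0.02 over all tested genes. The 2 lower calls did not hold without PBS replicate 1 or PBS replicate 2, where fewer of all tested genes were called as well.

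The second set I60, the line on more H2O2, against PBS. In I60 Mest, Snrpn with Snurf and Phlda2 fell, and Peg12 rose. As rows, 1 of 12 was called higher and 4 lower (3 distinct), with a background of 13.9% higher and 13.1% lower (27.1% in either direction). The median log2 fold change was -0.15, against -0.00 over all tested genes. Because both comparisons use the same PBS libraries, they are not independent of each other.

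I60 against C40 tests whether the 2 lines differ. Mest, Snrpn with Snurf, and Gnas were lower in I60, which makes 4 of 12 rows (3 distinct), with a background of 5.73% of all tested genes lower and 3.51% higher (9.23% in either direction). No listed gene was called higher in I60 (0 with limma, 0 with edgeR and 0 with DESeq2), and 1, Peg12, had an unadjusted p below 0.05. The calls of Mest and Gnas did not hold without I60 replicate 1 or I60 replicate 2, where fewer of all tested genes were called as well. The plot of log2 fold changes shows all 3 comparisons.

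**Figure D1:**
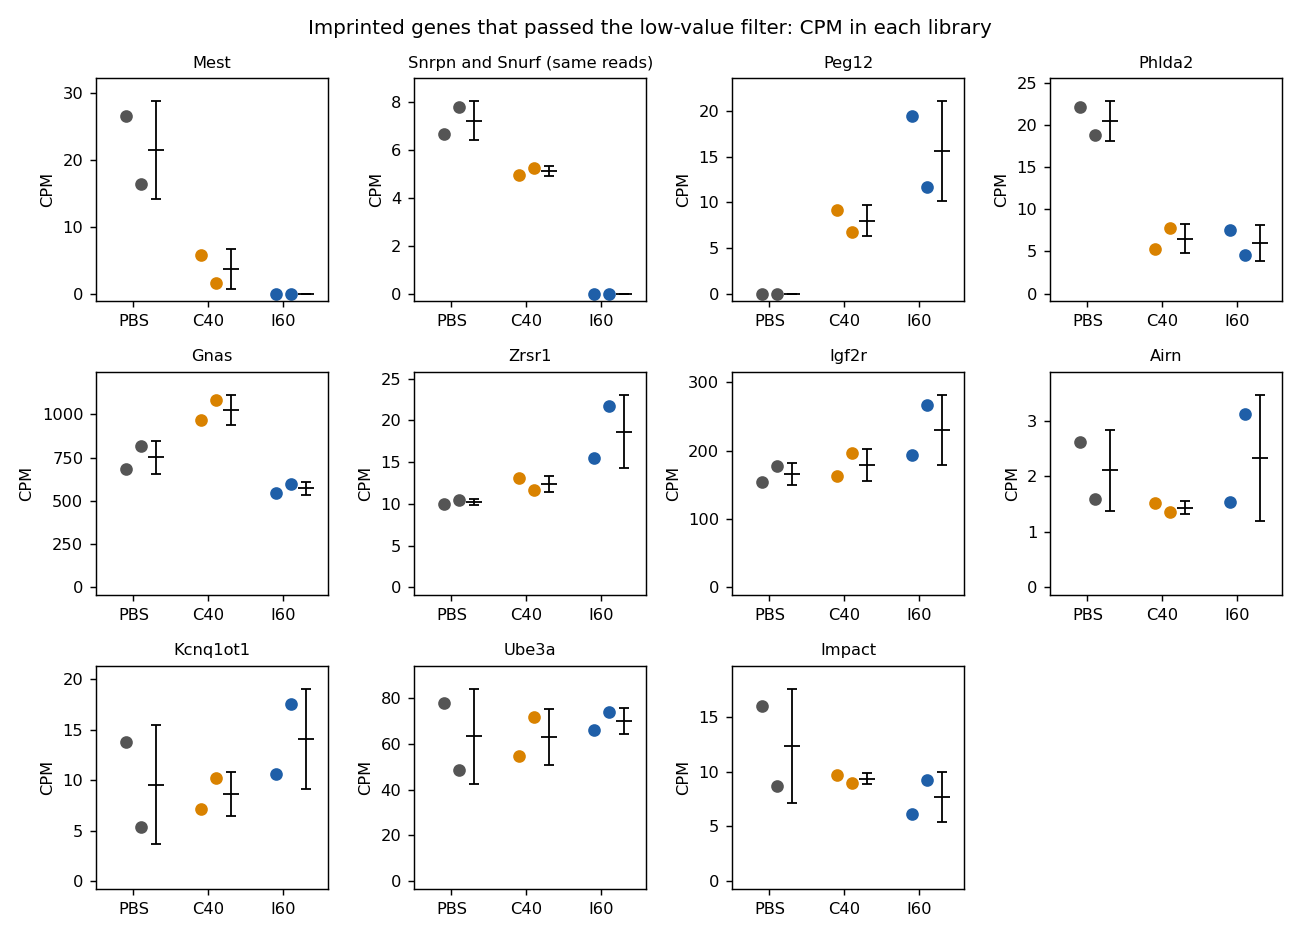
CPM of the 11 distinct tested measurements in each library, by group; each point is a library and the black bar is the mean ± SD (n = 2). Mest and Snrpn with Snurf are at 0 in I60, Peg12 is at 0 in PBS, and Phlda2 is lower in both treated lines than in PBS.

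**Figure D2:**
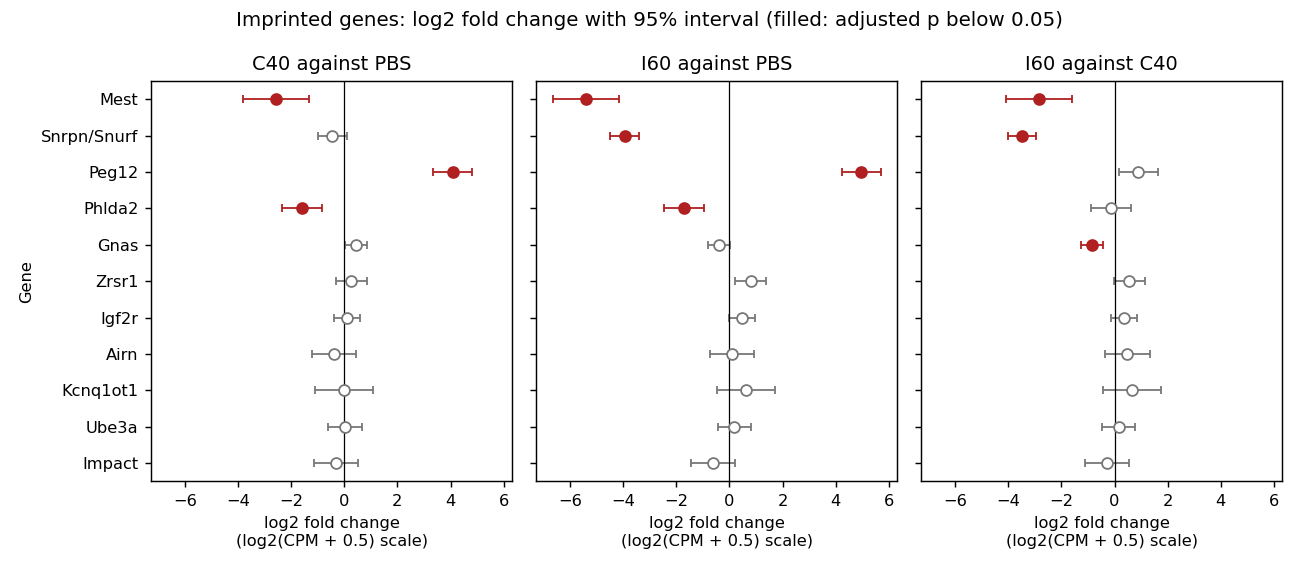
Log2 fold change on the log2(CPM + 0.5) scale (horizontal axis) of each tested gene in the 3 comparisons, with its 95% interval from limma. Filled points passed an adjusted p of 0.05: Mest, Peg12 and Phlda2 in C40 against PBS, these and Snrpn in I60 against PBS, and Mest, Snrpn and Gnas in I60 against C40.

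Mest (gene ID 17294; chromosome 6, 30733506 to 30748466) encodes a hydrolase-like protein and is expressed from the paternal copy. It stood at 26.6 and 16.3 CPM in PBS, 5.80 and 1.53 in C40, and 0 and 0 in I60. The groups do not overlap, and no I60 library held a read. Mean levels were 21.5 ± 7.26 CPM in PBS and 3.66 ± 3.02 in C40 (SD, n = 2). In C40 Mest fell 5.98-fold (log2 fold change -2.58, SE 0.53, limma adjusted p = 0.0148). With PBS replicate 1 or PBS replicate 2 left out it did not pass (adjusted p = 0.120 and 0.0502). The size rests on which C40 library is used: Mest was 10.5-fold lower without C40 replicate 1 and 3.39-fold lower without C40 replicate 2. Folds against groups with no reads are bounds, here and below, taken with 3 reads assumed for the whole group. They use the pooled reads of the other group and cover counting error in the group at 0 only. The spread between the libraries of the other group is not covered. On that basis Mest was at least 766-fold lower in I60 than in PBS (limma adjusted p = 0.00039). It was at least 127-fold lower in I60 than in C40 (limma adjusted p = 0.0172). That difference did not pass the threshold with I60 replicate 1 or I60 replicate 2 left out (adjusted p = 0.145 and 0.144) or with no filter on low values (0.0599), while its fitted log2 fold change stayed at -2.84 in all 3.

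The Mest gene hosts a microRNA, miR-335, in an intron. Its row, Mir335, was at 0 in all 6 libraries, in a preparation of total RNA libraries that is not made for small RNA. Its 2 mature forms are shown because they lie inside the locus that lost its reads, with the seed (bases 2 to 8) in capitals.
mmu-miR-335-5p: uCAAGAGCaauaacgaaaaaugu
mmu-miR-335-3p: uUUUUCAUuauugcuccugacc
They differ in seed. Rows of microRNAs lay within the RefSeq spans of 7 listed genes, from 1 in Mest to 10 in Mirg, and each was at 0 in every library. Further small RNA rows overlap GENCODE exons of Mirg (4) and Rian (3), also with 0 reads.

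Exons of Mest overlap those of Copg2, a coat protein gene on the opposite strand, and the sources used here do not give the strand setting of the authors' counting. Copg2 stood at 74.0 and 78.7 CPM in PBS, 58.9 and 57.6 in C40, and 51.9 and 73.0 in I60, and it was called in no comparison. Of the 10 nearest tested genes outside the imprinted lists, 1 was called lower in I60 against PBS and 4 higher, beside 13.1% and 13.9% of all tested genes. The 4 called higher were Zc3hc1, Podxl, Plxna4 and Chchd3. Podxl went from 0.0175 and 0.0166 CPM in PBS to 0.831 and 0.865 in C40 and 62.5 and 57.5 in I60. The gene called lower was Cpa4, a carboxypeptidase. These neighbours are named after their values were seen. Cpa4 was at 35.8 and 16.1 CPM in PBS, 12.8 and 17.7 in C40, and 0 and 0 in I60, at least 923-fold lower in I60 than in PBS (limma adjusted p = 8.9e-05). Like Mest it had no read in I60, but in C40 against PBS it did not pass (limma adjusted p = 0.274).

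Snrpn and Snurf (gene IDs 20646 and 84704; chromosome 7) share 1 paternally expressed transcript unit; SNRPN is a core spliceosomal protein. The common row values were 6.63 and 7.77 CPM in PBS, 4.95 and 5.24 in C40, and 0 and 0 in I60. PBS and C40 do not overlap but lie close together, and I60 held no read. C40 did not pass against PBS for Snrpn (log2 fold change -0.46, SE 0.23, limma adjusted p = 0.202). I60 was at least 259-fold lower than PBS (limma adjusted p = 3.8e-05) and at least 183-fold lower than C40 (limma adjusted p = 0.00028). Both calls held in every alternative run, including each library left out.

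The rest of the Snrpn domain was uneven. Snhg14, the long non-coding RNA that begins with Snrpn and runs antisense to Ube3a, had 16 and 7 reads in PBS, 6 and 11 in C40, and 0 and 0 in I60. That makes it at least 7.03-fold lower in I60 than in PBS, a bound without a test because its level was below the filter. Ube3a, an E3 ubiquitin ligase expressed from the maternal copy in neurons and from both copies elsewhere, was at 77.9 and 48.6 CPM in PBS, 54.5 and 71.8 in C40, and 65.8 and 73.9 in I60. Its groups overlap, and it passed in no comparison. In I60 against PBS the log2 fold change of Ube3a was 0.18, with a 95% interval from -0.45 to 0.81.

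Peg12 (gene ID 27412; chromosome 7, 62461871 to 62464510) is a paternally expressed gene of the Frat family, whose members bind the kinase GSK3. It moved the other way from Snrpn within the same domain. No PBS library held a read of Peg12 (0 and 0 CPM), while C40 had 9.21 and 6.81 and I60 19.5 and 11.7 CPM. Treated libraries therefore all lie above PBS, and the I60 libraries above the C40 libraries. Peg12 was at least 310-fold higher in C40 (limma adjusted p = 0.00029) and at least 609-fold higher in I60 (limma adjusted p = 5.5e-05). The difference between the lines did not pass (log2 fold change 0.89, SE 0.31, limma adjusted p = 0.152).

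Mkrn3, a makorin ring finger gene beside Peg12, was at 0.175 and 0.116 CPM in PBS, 0.540 and 0.883 in C40, and 0.637 and 0.792 in I60. Its reads were 10 and 7, 26 and 48, and 34 and 43, so both treated groups lie above PBS, at a level under the filter. With no filter Mkrn3 was called higher in each treated line (limma adjusted p = 0.0288 for C40, 0.0207 for I60). Ndn and Magel2, the MAGE family genes of the same cluster, had no read. In the stretch from Atp10a to Klf13, 23 of 35 rows were at 0 in every library, where 27.8% of all rows were. Most of these 23 were microRNA or snoRNA rows, and the preparation is not made for small RNA. In the same stretch 7 rows were tested, with Snrpn and Snurf counted apart, where 47.1% of all rows were. The plot of the domain shows that genes at both ends kept reads in all libraries.

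**Figure D3:**
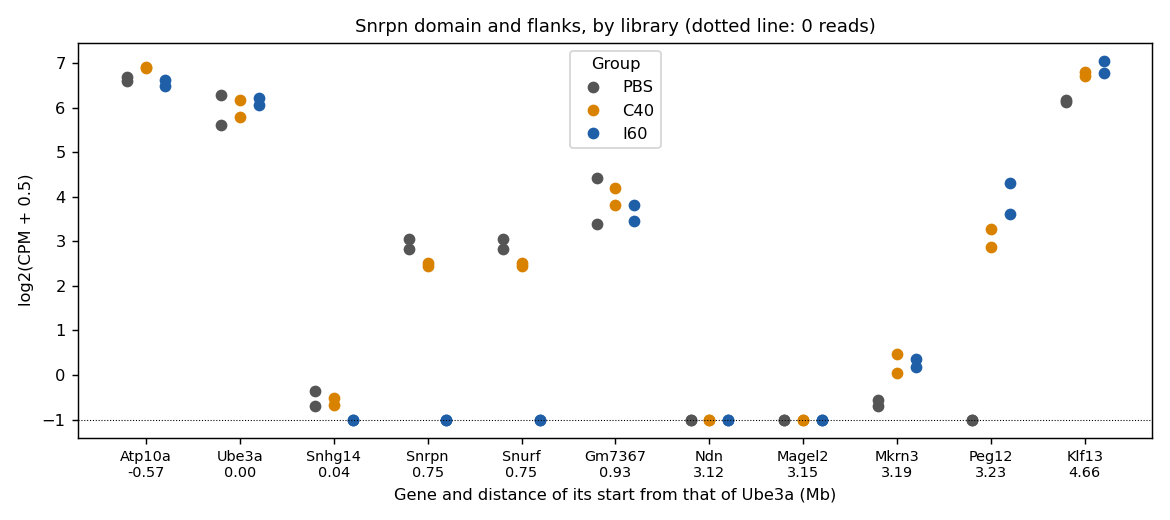
Levels as log2(CPM + 0.5) of genes of the Snrpn domain and its flanks in each library, in chromosomal order, with the distance from the start of Ube3a in Mb under each name; the dotted line is 0 reads. Snrpn, Snurf and Snhg14 drop to 0 in I60, Peg12 leaves 0 in both treated lines, and Ndn and Magel2 are at 0 in all 6 libraries.

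Neighbours outside the imprinted lists were called at shares near those of all tested genes. The 10 nearest are the same genes for Snrpn and for Peg12, so their counts are not separate observations. For Snrpn in I60 against PBS, 1 of 10 was called in the same direction (Mtmr10) and 1 in the other (Klf13). For Peg12 1 of 10 was called in its direction in each treated line (Klf13), and 1 in the other in I60 (Mtmr10). These neighbours lie up to 4.33 Mb from Snrpn and 6.58 Mb from Peg12. These compare with 13.1% of all tested genes lower in I60, and with 11.2% and 13.9% higher in C40 and I60.

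Phlda2 (gene ID 22113; chromosome 7, 143501545 to 143503145) encodes a pleckstrin homology protein that restrains placental growth, and is expressed from the maternal copy. Its level was 22.1 and 18.8 CPM in PBS, 5.28 and 7.75 in C40, and 7.53 and 4.53 in I60. PBS lies above all 4 treated libraries, and C40 and I60 overlap. Phlda2 fell 3.02-fold in C40 (log2 fold change -1.59, SE 0.32, limma adjusted p = 0.0139) and 3.28-fold in I60 (log2 fold change -1.71, SE 0.32, limma adjusted p = 0.00766). With PBS replicate 1 or PBS replicate 2 left out the fall in C40 did not pass (adjusted p = 0.113 and 0.0642). The fall in I60 did not pass with PBS replicate 1 or I60 replicate 2 left out (adjusted p = 0.0690 and 0.0645). Between the lines the log2 fold change was -0.12, with a 95% interval from -0.87 to 0.64.

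Several neighbours of Phlda2 were called in its direction. In C40 5 of its 10 nearest tested genes outside the imprinted lists were called lower and 1 higher, and in I60 6 were lower and 1 higher, beside 9.02% and 13.1% of all tested genes called lower. Named after their values were seen, Tnfrsf22 and Tnfrsf23, decoy receptors for the ligand TRAIL, were lower in both lines. Cars, the nearest of the 10, passed in neither line (limma adjusted p = 0.830 in C40 and 0.964 in I60). The imprinted lists need not hold every imprinted gene of this cluster. Tnfrsf23 went from 171 and 183 CPM in PBS to 73.3 and 77.1 in C40 and 43.2 and 50.5 in I60. Lsp1, a leukocyte-specific actin-binding protein gene, rose from 0.823 and 0.880 CPM in PBS to 10.0 and 9.68 in C40 and 6.82 and 12.3 in I60.

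Kcnq1ot1, the paternal long non-coding RNA that silences Phlda2 and Cdkn1c on its own chromosome, was at 13.7 and 5.38 CPM in PBS, 7.13 and 10.2 in C40, and 10.6 and 17.6 in I60. The libraries of PBS span those of C40, and no comparison passed for it. In C40 against PBS its log2 fold change was -0.02, with a 95% interval from -1.12 to 1.08, wide enough to hold a 2-fold change either way. Exons of Kcnq1ot1 overlap Kcnq1 on the opposite strand, which itself stayed at or below 0.350 CPM. Cdkn1c, the cell cycle inhibitor p57, had 4 and 3 reads in PBS, 5 and 1 in C40, and 2 and 0 in I60. Ascl2, a transcription factor, had 3 reads in all libraries together.

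Gnas (gene ID 14683; chromosome 2, 174284320 to 174346744) encodes the stimulatory G protein alpha subunit and related products from several promoters with different imprints. The row sums them. Its level was 684 and 819 CPM in PBS, 965 and 1085 in C40, and 545 and 598 in I60, so that C40 lies above PBS and I60 below it. Neither line passed against PBS: the log2 fold change was 0.45 in C40 (SE 0.17, limma adjusted p = 0.111) and -0.39 in I60 (SE 0.17, limma adjusted p = 0.143). I60 was 1.79-fold lower than C40 (log2 fold change -0.84, SE 0.17, limma adjusted p = 0.0257). The difference did not pass the threshold with PBS replicate 1 or 2 left out (adjusted p = 0.0567 and 0.0562, with the fold unchanged), without C40 replicate 2 (0.0508), and without I60 replicate 1 or 2 (0.203 and 0.137). With no filter on low values it did not pass either (0.0678).

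Igf2r and Airn form a pair: Igf2r, the maternally expressed receptor that takes IGF2 to the lysosome, is silenced in cis by the antisense RNA Airn. Igf2r stood at 155 and 177 CPM in PBS, 163 and 196 in C40, and 194 and 266 in I60. I60 lies above PBS without passing (log2 fold change 0.46, 95% interval -0.03 to 0.95, limma adjusted p = 0.150). Airn stood at 2.63 and 1.59 CPM in PBS, 1.52 and 1.36 in C40, and 1.54 and 3.13 in I60. It passed in no comparison, with a log2 fold change of 0.09 in I60 against PBS and a 95% interval from -0.74 to 0.92.

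Zrsr1, a splicing factor gene that sits in an intron of Commd1, was at 10.0 and 10.5 CPM in PBS, 13.1 and 11.7 in C40, and 15.5 and 21.7 in I60. The 3 groups do not overlap. In I60 against PBS its log2 fold change was 0.81 (SE 0.25), with a limma adjusted p of 0.05002, just above the threshold. It passed in 6 of the 13 alternatives, edgeR and DESeq2 among them. Its exons overlap those of Commd1 on the opposite strand, and Commd1 rose in both lines.

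Impact, which restrains the amino acid sensing kinase GCN2, was at 16.0 and 8.68 CPM in PBS, 9.71 and 9.01 in C40, and 6.11 and 9.29 in I60. PBS replicate 1 is the highest and the other libraries lie together. Impact did not pass in any comparison (limma adjusted p = 0.547, 0.238 and 0.694).

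Scaled by exon length, Gnas had the highest level in PBS, at 67.2 CPM per kilobase, followed by Phlda2 at 18.2 and Igf2r at 17.8. Snurf is left out of this order, because its annotated exons cover 0.216 kb and the reads it is given are those of the whole Snrpn transcript. Mest had 5.44, Snrpn 3.33, Ube3a 3.07, Impact 2.41 and Zrsr1 2.29 CPM per kilobase in PBS. The long non-coding RNAs Airn and Kcnq1ot1 were at 0.586 and 0.103, and Peg12 was at 0. In I60 Peg12, at 5.90 CPM per kilobase, stood close to Phlda2 at 5.38.

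The genes at 0 in all 6 libraries were Meg3 and Dlk1 of the Dlk1-Meg3 cluster; Peg3, Usp29 and Zim1 of the Peg3 cluster; Peg10 and Sgce; and Ndn and Magel2. All listed genes of the Peg3 and Peg10 clusters are thus without a read. In the Dlk1-Meg3 cluster, Rian had 1 read and Mirg 27 over all libraries. A count of 0 limits the level in these libraries and does not show that the genes are absent from the cells.

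The 12 genes with few reads held between 1 and 168 over all libraries, and the highest value was 0.883 CPM, in Mkrn3. H19, the growth-restraining non-coding RNA, had 3 and 2 reads in PBS, 2 and 3 in C40 and 0 in I60. Igf2, the fetal growth factor next to it, had 1 and 4, 2 and 1, and 0 and 0 reads. With 5 reads of each in PBS, a difference in I60 is not detectable at this depth. Plagl1, a zinc finger transcription factor gene, had 0 reads in PBS, 0 and 1 in C40, and 15 and 3 in I60. Grb10, an adaptor that restrains insulin and IGF signalling, had 20 reads in all. Nnat, Rasgrf1 and Slc38a4 had 1, 2 and 3. Counting those at 0, 14 of the 33 genes had at most 3 reads in all libraries together.

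**Figure D4:**
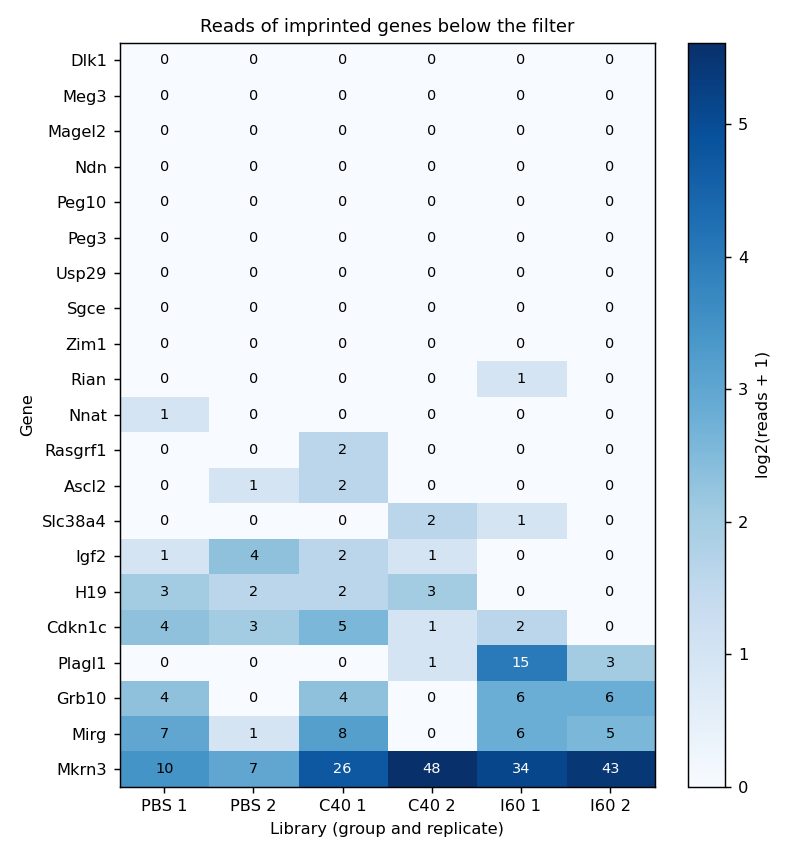
Reads recovered in each library for the 21 listed genes that were not tested, sorted by their total; shading is log2(reads + 1). Only Mkrn3 and Plagl1 reached more than 8 reads in any library, and 9 genes are at 0 throughout.

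A further list of imprinted genes was measured in the same way, with 46 rows, of which 24 were tested and 9 were at 0. In C40 3 rose and 5 fell (background 11.2% and 9.02%), and in I60 6 rose and 8 fell (13.9% and 13.1%). The fallen count in I60 was 4 to 10 when 1 library was left out, with 4 when either PBS library or I60 replicate 2 was dropped and 5 when I60 replicate 1 was. In C40 it was 3 to 8, with 3 without either PBS or either I60 library and 8 without C40 replicate 1. The risen count in I60 was 3 without I60 replicate 2. Counts over all tested genes moved in the same directions in these runs. The median log2 fold change of the list was -0.33 in C40 and -0.20 in I60, against -0.02 and -0.00 over all tested genes.

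Gatm, a creatine synthesis enzyme, was at 54.2 and 47.8 CPM in PBS, 10.8 and 10.3 in C40, and 1.22 and 1.20 in I60. It fell 4.64-fold in C40 and 30.1-fold in I60 (limma adjusted p = 0.00079 and 1.6e-05), and was lower in I60 than in C40 (limma adjusted p = 0.00058). Cobl, an actin nucleator next to Grb10, went from 103 and 106 CPM to 7.25 and 8.08 in C40 and 5.47 and 4.03 in I60. Cobl fell 12.9-fold and 20.2-fold (limma adjusted p = 0.00014 and 2.7e-05). Peg13, a non-coding RNA, was at 9.07 and 10.4, 2.39 and 1.07, and 0.993 and 1.22 CPM, and fell in both lines (limma adjusted p = 0.0039 and 0.00127). Each of these 3 genes has PBS libraries well above all treated ones.

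Pon3, a lactonase of the Peg10 cluster, rose from 5.76 and 3.65 CPM in PBS to 17.0 and 19.2 in C40 and 35.5 and 48.6 in I60 (3.64-fold and 8.25-fold, limma adjusted p = 0.0048 and 0.00035). Commd1, a regulator of copper handling, rose from 27.2 and 31.7 CPM to 95.5 and 101 in C40 and 80.0 and 77.1 in I60 (limma adjusted p = 0.00076 and 0.00111). Ampd3, an AMP deaminase, was at 21.0 and 19.3 CPM in PBS, 11.8 and 9.07 in C40, and 61.1 and 58.4 in I60. It rose 2.92-fold in I60 (limma adjusted p = 0.0022) and was lower in C40 (limma adjusted p = 0.0248). The lower level in C40 did not pass without PBS replicate 1 (adjusted p = 0.174), PBS replicate 2 (0.102), C40 replicate 2 (0.0574), I60 replicate 1 (0.0624) or I60 replicate 2 (0.0624).

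Of 20 factors that set or keep imprints, 17 were tested. In C40 2 rose, Zfp57 and Ehmt2, and none fell (0 with limma, with 3 at an unadjusted p below 0.05, 1 with edgeR and 3 with DESeq2; 2 without PBS replicate 2 or C40 replicate 1). In I60 4 rose and none fell (0 with limma, 0 at an unadjusted p below 0.05, 0 with edgeR and 0 with DESeq2; 1 without PBS replicate 2). The limma counts stand beside 11.2% and 13.9% of all tested genes higher in C40 and I60, and 9.02% and 13.1% lower. Of all 11524 tested genes, limma called 1040 lower in C40, edgeR 1016 and DESeq2 1507.

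Zfp57, the zinc finger protein that binds methylated imprinting control regions, had no read in PBS, 1.29 and 2.96 CPM in C40, and 7.32 and 10.2 CPM in I60. Every treated library lies above PBS, and I60 lies above C40. Zfp57 was at least 85.2-fold higher in C40 (limma adjusted p = 0.0049) and at least 344-fold higher in I60 (limma adjusted p = 0.00022). I60 exceeded C40 (log2 fold change 1.88, SE 0.36, limma adjusted p = 0.0194), which did not pass without I60 replicate 1 or 2 (adjusted p = 0.102 and 0.167), with edgeR (0.0504) and with no filter (0.0566).

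Trim28, the corepressor that ZFP57 recruits, was at 622 and 638 CPM in PBS, 1033 and 758 in C40, and 1209 and 970 in I60, and rose 1.72-fold in I60 (limma adjusted p = 0.0325). Dnmt3a, a DNA methyltransferase, was at 24.7 and 31.5, 39.9 and 32.3, and 64.8 and 55.6 CPM, and rose 2.13-fold in I60 (limma adjusted p = 0.0105). Ehmt2, a histone H3 lysine methyltransferase, was at 202 and 247, 359 and 326, and 394 and 383 CPM, and rose 1.74-fold in I60 (limma adjusted p = 0.0122). When PBS replicate 1 or either I60 library was dropped, Zfp57 was the 1 gene of this list called higher in I60. Trim28 also failed to pass without PBS replicate 2 (0.134) and with no filter (0.0764). Ehmt2 in C40 (limma adjusted p = 0.0416) did not pass in 8 alternatives, among them edgeR (0.0618) and each of PBS replicate 1, PBS replicate 2, C40 replicate 1, I60 replicate 1 and I60 replicate 2 left out.

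The insulin-like growth factor axis, on which Igf2, Igf2r and Grb10 act, was measured with 22 rows, 12 of them tested and 2 at 0. In C40 4 rose and 2 fell, and in I60 4 rose and 4 fell, with the same backgrounds as before. The fallen count in C40 was 1 without PBS replicate 1 and 4 without C40 replicate 2. Igfbp3, a secreted IGF binding protein, was at 111 and 53.2 CPM in PBS, 22.8 and 9.49 in C40, and 0 and 0.0184 in I60, where 1 read was found. It fell 5.07-fold in C40 (limma adjusted p = 0.0158, and 0.118 without PBS replicate 1), or 7.74-fold without C40 replicate 1 and 3.32-fold without C40 replicate 2. In I60 the ratio of pooled reads was 8752 in favour of PBS (exact 95% interval 1570 to 345710, which covers counting error only and not the spread between the PBS libraries; limma adjusted p = 7.1e-05).

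Among the other binding proteins, Igfbp4 went from 112 and 113 CPM to 674 and 584 in C40 and 524 and 415 in I60 (limma adjusted p = 0.00022 and 0.00023). Igfbp6, which prefers IGF2, went from 0.683 and 0.348 CPM to 37.6 and 12.6 and to 38.6 and 27.5 (limma adjusted p = 0.00123 and 0.000445). Igfbp7 was at 0.193 and 0.0996 CPM in PBS, 16.3 and 16.4 in C40, and 0.225 and 0.0553 in I60. On the log2(CPM + 0.5) scale, which compresses low levels, it was 26.2-fold higher in C40 than in PBS and 26.6-fold lower in I60 than in C40 (limma adjusted p = 7.8e-05 and 0.00015). On the reads, edgeR gave 112-fold and 115-fold.

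Igf2bp1, a protein that binds Igf2 messenger RNA, was at 8.19 and 7.88 CPM in PBS, 43.1 and 22.3 in C40, and 108 and 71.3 in I60. It rose 3.69-fold and 10.4-fold (limma adjusted p = 0.0104 and 0.00055), and the rise in C40 did not pass without PBS replicate 1 or 2 (0.0694 and 0.0630). Irs1, the insulin receptor substrate, was at 14.8 and 14.6, 12.2 and 8.94, and 1.33 and 3.59 CPM, and fell 5.55-fold in I60 (limma adjusted p = 0.0041). In C40 Irs1 did not pass (limma adjusted p = 0.434).

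**Figure D5:**
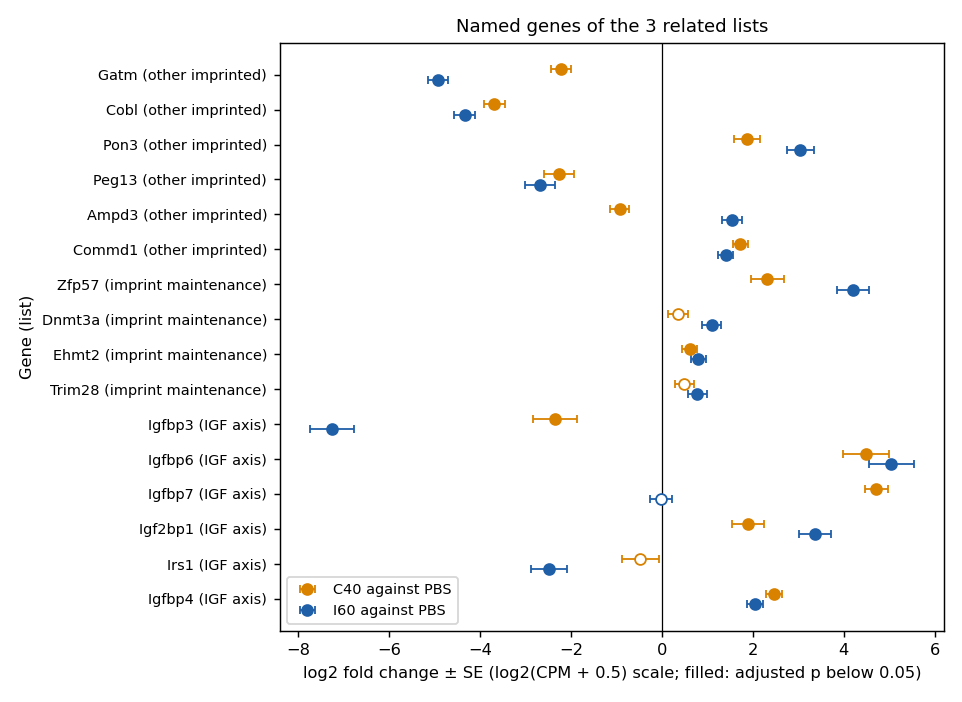
Log2 fold change ± SE on the log2(CPM + 0.5) scale of the 16 named genes of the 3 related lists, for C40 (orange) and I60 (blue) against PBS; filled points passed an adjusted p of 0.05. Ampd3 lies on opposite sides of 0 in the 2 lines, Igfbp7 is high in C40 alone, and Zfp57 is above 0 in both.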

How the data were processed

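The table holds CPM as the authors deposited it, 1 row per Entrez gene; per the submitters' processing notes, reads were aligned with STAR to mm10. The counting program and its strand setting are not known here. Each value was a whole multiple of the smallest step in its column (100% of values, tolerance 0.01), so whole reads were recovered, which edgeR 4.0.16 and DESeq2 1.42.0 used as alternatives. edgeR called 1351 genes higher and 1016 lower in C40, 1626 and 1484 in I60, and 388 and 696 in I60 against C40. RefSeq (GRCm38.p6, the same build) named 24374 rows and left 80 unnamed. Exon lengths came from GENCODE on GRCm38, where RefSeq had been planned.

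limma 3.58.1 (R 4.3.3) with a trend was fitted on log2(CPM + 0.5) to the 11524 rows that reached 1 CPM in 2 or more libraries, over all 3 groups (3 residual degrees of freedom), two-sided, with Benjamini-Hochberg adjustment. The scale understates changes of low genes. The script was tested on simulated counts. Alternatives were other pseudocounts, no filter, TMM scaling, edgeR, DESeq2, a replicate block and leaving out each library.

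Every listed gene is accounted for. Of each related list, up to 6 called members with the largest log2 fold change and at least 1 CPM in the higher group are named. Members and lists were chosen with earlier results of these data known.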

Additional observations from a re-analysis of the deposited data

Results flagged for a closer look

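In 4 rows, which are 3 measurements because Snrpn and Snurf share their reads, the effect against PBS differed between the lines by a test of the difference itself (limma, I60 against C40). For Mest the effect in I60 minus that in C40 was -2.84 on the log2(CPM + 0.5) scale (adjusted p = 0.0172). For Snrpn it was -3.48 and for Snurf -3.48 (adjusted p = 0.00028), and for Gnas -0.84 (adjusted p = 0.0257). Both I60 libraries lie below both C40 libraries for each. These are the I60 against C40 differences already given, and those of Mest and Gnas did not pass in every alternative. Where I60 held no read, the size depends on the 0.5 added to each value. On the reads, edgeR gave -10.6 for Mest and DESeq2 -10.1. With no read in I60 these are not measured sizes either, and the bound given above is at least 127-fold.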

How the results depend on the processing

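Of the 36 tests of listed genes, the replicate block changed no call; over all genes it gave 1552 higher and 1301 lower in C40, and of the imprint maintenance factors 2 lower in C40, where 0 had been called. Replicate numbers were not taken as pairs, since the labels give no shared batch and each comparison has 2 numbers; differences between replicates correlated across genes at 0.154 (PBS with C40), 0.105 (PBS with I60) and 0.438 (C40 with I60). With the block, 1 listed gene was called higher and 2 lower in C40, 1 and 4 in I60, and 0 and 4 in I60 against C40. With no filter on low values, 2 listed genes were higher in C40, 2 higher in I60, and 2 lower in I60 against C40; Mkrn3 entered in the first and second, while Mest and Gnas left in the last. A pseudocount of 0.1, TMM scaling, edgeR and DESeq2 each gave 2 higher in I60, through Zrsr1 (adjusted p = 0.0496, 0.0403, 0.0369 and 0.00658). Leaving out 1 library gave 0 to 2 lower in C40, 1 to 2 higher in I60 and 2 to 4 lower in I60 against C40. Over all tested genes, fewer were called against PBS without either PBS library, and fewer in every comparison without either I60 library. The cause was not tested. A group left with 1 library was assumed to vary like the others. Uncalled log2 fold changes that changed sign when 1 library was left out had these ranges. In C40 against PBS they were -0.022 to 0.24 for Igf2r, -0.75 to 0.10 for Impact, -0.66 to 0.62 for Kcnq1ot1 and -0.31 to 0.36 for Ube3a. In I60 against PBS they were -0.33 to 0.51 for Airn, -0.0076 to 1.27 for Kcnq1ot1, -0.16 to 0.52 for Ube3a and -0.21 to 0.17 for Igfbp7. In I60 against C40 they were -0.46 to 0.22 for Phlda2, -0.041 to 0.35 for Ube3a, -0.85 to 0.030 for Peg13 and -0.20 to 1.33 for Igfbp6, which passed without C40 replicate 1. With 2 libraries a group, small differences are beyond what these data can show.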
